A study of Mus musculus with 8 samples.

Results

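The genes described here encode the nuclear part of oxidative phosphorylation, the series of 5 protein complexes in the inner mitochondrial membrane that turns the electrons of nutrients into ATP. They were taken from the expression table by symbol: names that begin with Ndufa, Ndufb, Ndufc, Ndufs or Ndufv (complex I), Sdha to Sdhd (complex II), Uqcr or the symbol Cyc1 (complex III), Cox4 to Cox8 (complex IV) and Atp5 (complex V). Of 24013 symbols in the table, 95 met this rule: 45 named for complex I, 6 for complex II, 9 for complex III, 18 for complex IV and 17 for complex V. The name rule also takes in genes that are not structural subunits. By known function the 95 fall into 75 subunits, 12 assembly factors or associated genes (Ndufaf1 to Ndufaf7, Sdhaf1, Sdhaf2, Cox7a2l, Atp5s and Atp5sl) and 8 isoforms known mainly from other tissues.

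The series sorted intestinal epithelial cells from Lyz1CreER; R26R-tdT mice of mixed (C57/BL6; 129) background, aged 8 to 14 weeks, each given 1 dose of tamoxifen (10 mg per mouse). In these mice tamoxifen turns on the red protein tdTomato in cells in which the promoter of Lyz1, a lysozyme gene of Paneth cells, is active, and the descendants of such cells stay red. All 3 groups were live EpCAM+ CD45- tdT+ cells: CD24+ cells of non-irradiated mice (2 libraries), which the labels call Paneth cells, CD24+ cells taken 5 days after irradiation (3 libraries), and CD24- cells taken 5 days after irradiation (3 libraries), which the labels call derivative cells. No CD24- cells from non-irradiated mice were analysed here, so irradiation and loss of CD24 can be compared separately only along these 2 steps. The labels do not say that the replicates came from separate mice, and the p-values then measure only the spread between these libraries.

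Complex I (NADH dehydrogenase) and complex II (succinate dehydrogenase) pass electrons to ubiquinone, complex III passes them on to cytochrome c, and complex IV (cytochrome c oxidase) passes them to oxygen. Complexes I, III and IV pump protons as they do so, and complex V, the ATP synthase, uses the proton gradient to make ATP. In the intestine, absorptive enterocytes have many mitochondria, and Paneth cells are known for a more glycolytic metabolism than the stem cells beside them. The subunits that mitochondrial DNA encodes were not analysed here, so all values below are of nuclear genes.

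Expression was measured as FPKM, fragment numbers scaled to transcript length and library size, which allows levels of different genes to be set side by side. Genes with at least 1 FPKM in at least 2 of the 8 libraries were tested, 11190 in all, and 89 of the 95 passed. The other 6 were at or near 0. Cox4i2, Cox7b2, Cox8b and Cox8c, isoforms known from lung, testis, muscle or heart, were listed at 0 in all 8 libraries. Cox6a2, the heart and muscle form of subunit 6a, was listed at 0 in the 5 CD24+ libraries and at 0.163, 0.361 and 0.109 FPKM in the CD24- libraries. Ndufa4l2, a hypoxia-regulated paralog of Ndufa4, stayed at or below 0.136 FPKM. The muscle and testis isoforms were thus near or at 0, with the exceptions of Cox7a1 and Cox6b2 described further on.

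Read depth, approximated from the smallest steps of the FPKM values, was 35500000 to 44700000 reads a library. Of the 88 tested genes with a known transcript length, 84 had at least 100 approximate reads in every library. The cells carried the markers of their labels unevenly. The summed level of 10 Paneth cell markers was 381799 and 322764 FPKM in the non-irradiated CD24+ libraries, 281728, 269304 and 273589 in the irradiated CD24+ libraries, and 20797, 6136 and 3420 in the CD24- libraries. The summed level of 15 enterocyte markers was 608 and 2619 FPKM, then 1067, 995 and 1485, then 17441, 23063 and 37319. Markers of immune cells summed to at most 5.47 FPKM in any library, and those of stromal and muscle cells to 44.7 FPKM in CD24- library 3 and at most 12.2 FPKM elsewhere.

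Summed over all 95 genes, oxidative phosphorylation transcripts stood at 3702 and 6851 FPKM in the non-irradiated CD24+ libraries, 6847, 8018 and 8462 FPKM in the irradiated CD24+ libraries, and 25806, 29856 and 24484 FPKM in the irradiated CD24- libraries. The CD24- libraries were far above all others, the irradiated CD24+ libraries overlapped the higher of the 2 non-irradiated ones, and non-irradiated library 1 was the lowest. As a share of the FPKM of all genes the same sums were 0.226% and 0.477%, then 0.479%, 0.603% and 0.628%, then 4.43%, 5.13% and 4.53%. Set against the summed FPKM of all but the 100 most abundant genes, they were 3.69% and 4.14%, then 4.28%, 4.34% and 4.54%, then 7.11%, 7.88% and 6.55%. These sums still hold members that are among those 100 genes. With such members left out as well, the shares were 3.31% and 3.71%, then 3.86%, 3.91% and 4.06%, then 6.37%, 7.07% and 5.83%. The size of the difference in share thus depended on the most abundant genes. In bulk samples of this kind fewer expressing cells and less RNA per cell cannot be told apart.

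**Figure D1:**
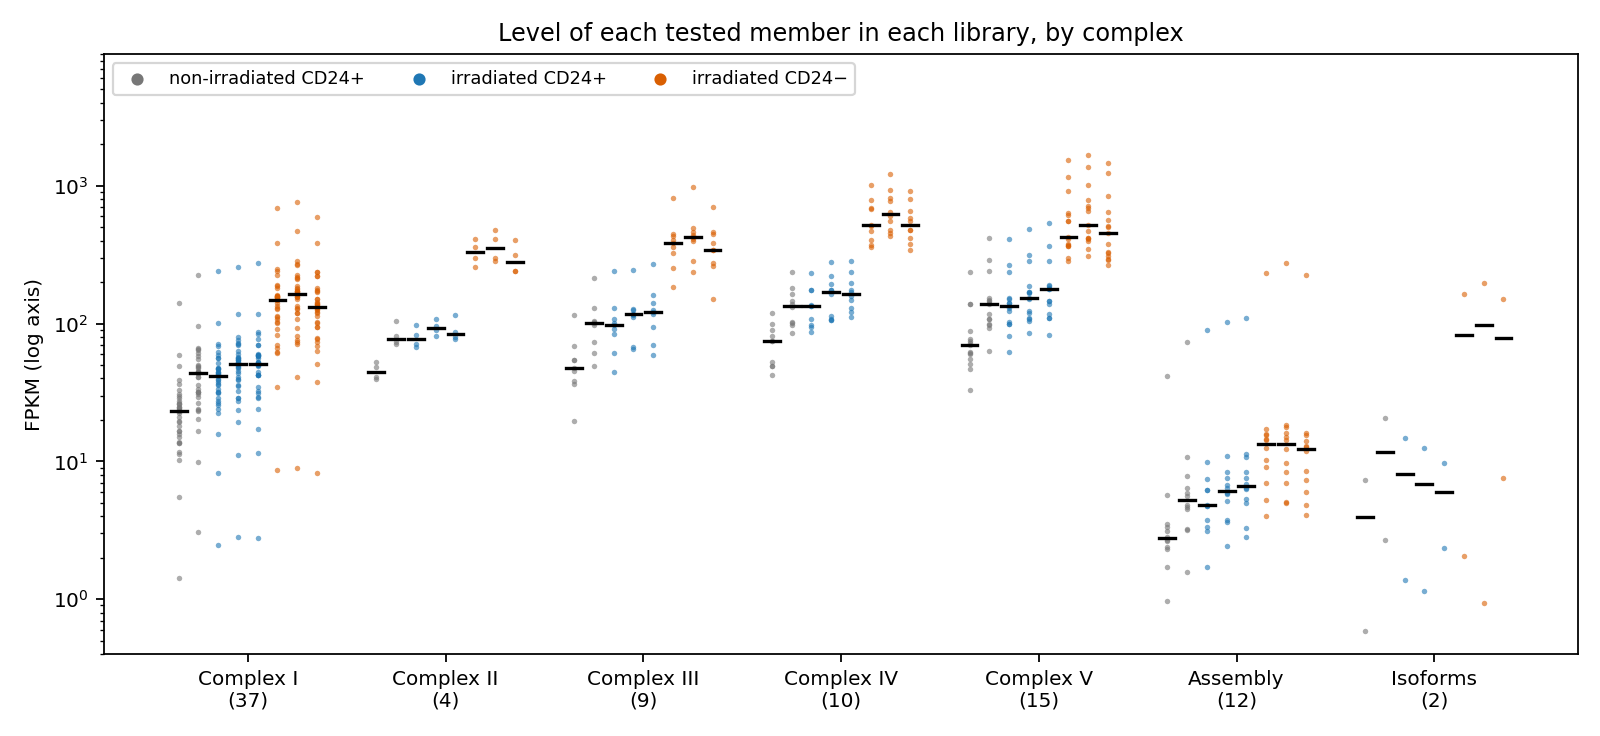
Level of each of the 89 tested genes (FPKM, log axis) in each of the 8 libraries, grouped by complex, with assembly factors and tissue isoforms apart; each point is 1 gene in 1 library and each bar the median of the group in that library. In all 5 complexes the medians of the 3 CD24- libraries (orange) lie above those of the 5 CD24+ libraries (grey and blue), and that of non-irradiated library 1 (leftmost grey) is the lowest.

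The first comparison asks whether irradiation was followed by a change of these genes within CD24+ Paneth cells. No member was called higher or lower in irradiated CD24+ than in non-irradiated CD24+ cells by limma at an adjusted p under 0.05, and no other gene was either (0% of tested genes higher and 0% lower). The values of the members leaned upward: their median log2 difference was 0.60, beside 0.32 for all tested genes, and 84 of 89 lay above that median of all genes, which by construction splits them at 50%. With median-of-ratios scaling the member median was 0.14 beside -0.03 for all genes, and with scaling by all but the 100 most abundant genes 0.16 beside -0.02, with 0 members called. At an unadjusted p under 0.05, 23 members were higher and 0 lower, beside 12.2% of all genes higher and 0.536% lower, and in 40 members all 3 irradiated libraries lay above both non-irradiated ones, beside 34.2% of all genes. The smallest adjusted p of any member was 0.348 (limma).

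The upward lean was much the same in each complex, with medians of 0.59 in complex I, 0.50 in II, 0.67 in III, 0.64 in IV and 0.62 in V, and 0.55 in the assembly factors. Uqcr11, a small subunit of complex III, had the largest difference. It stood at 38.1 and 74.0 FPKM in non-irradiated and at 83.8, 111 and 94.7 FPKM in irradiated CD24+ cells, so that the groups did not overlap, and its log2 difference was 0.84 ± 0.33 (SE, adjusted p = 0.348, limma). Cox7a2l, a factor that joins complexes III and IV into supercomplexes, was at 41.9 and 73.8, then 90.3, 102 and 109 FPKM, also without overlap. Ndufc2, a membrane-arm subunit of complex I, was at 15.0 and 32.0, then 33.7, 44.1 and 42.3 FPKM. Cox7a1 had the lowest difference of any member, -0.03 ± 0.36 (SE), with 7.30 and 20.8, then 14.7, 12.6 and 9.72 FPKM.

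The size of this lean depended on which non-irradiated library was kept. Without library 2 the member median rose to 1.04, beside 0.59 for all genes. Non-irradiated library 1 had the lowest member sum of all 8 libraries and the lowest median-of-ratios size factor, 0.528 beside 0.867 in library 2. Without library 1 the member median fell to 0.17, beside 0.07 for all genes, and 0 members were called. Without library 2, which leaves only the low library as the reference, 84 members were called higher, beside 46.4% of all genes. Markers of other cells moved as well. The 8 enteroendocrine markers summed to 143 and 148 FPKM in non-irradiated and to 273, 854 and 1148 FPKM in irradiated CD24+ cells. The 6 stem cell markers were also higher, at 551 and 842, then 1245, 1137 and 991 FPKM. The 8 tuft markers were lower, at 27.2 and 37.5, then 11.3, 20.04 and 8.16 FPKM. Sums of stromal and muscle markers were higher too, and those of Paneth markers lower. None of these sums overlapped between the groups. Red cell markers reached 53.1 FPKM in non-irradiated library 2 and at most 2.79 FPKM elsewhere. The part of these markers in the lean was not tested.

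The second comparison asks how the CD24- derivatives differ from CD24+ cells of irradiated mice. Here 86 of the 89 tested members were higher in CD24- cells and 0 were lower, beside 48.6% of all tested genes higher and 7.27% lower (limma, adjusted p under 0.05). All 75 subunits were called higher, and in each of them the 3 CD24- libraries lay above the 3 CD24+ libraries, beside 59.1% of all genes. The median log2 difference was 1.72 over the 75 subunits and 1.66 over the 89 members, beside 0.51 over all tested genes. With a filter at 5 FPKM, which kept 7828 genes, the median over all genes was 0.73 and 59.7% were called higher. Of the 87 members kept 85 were called higher, with a median of 1.67. The subunits covered a narrow range, from 1.02 in Atp5g2 to 2.16 in Sdhb.

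**Figure D2:**
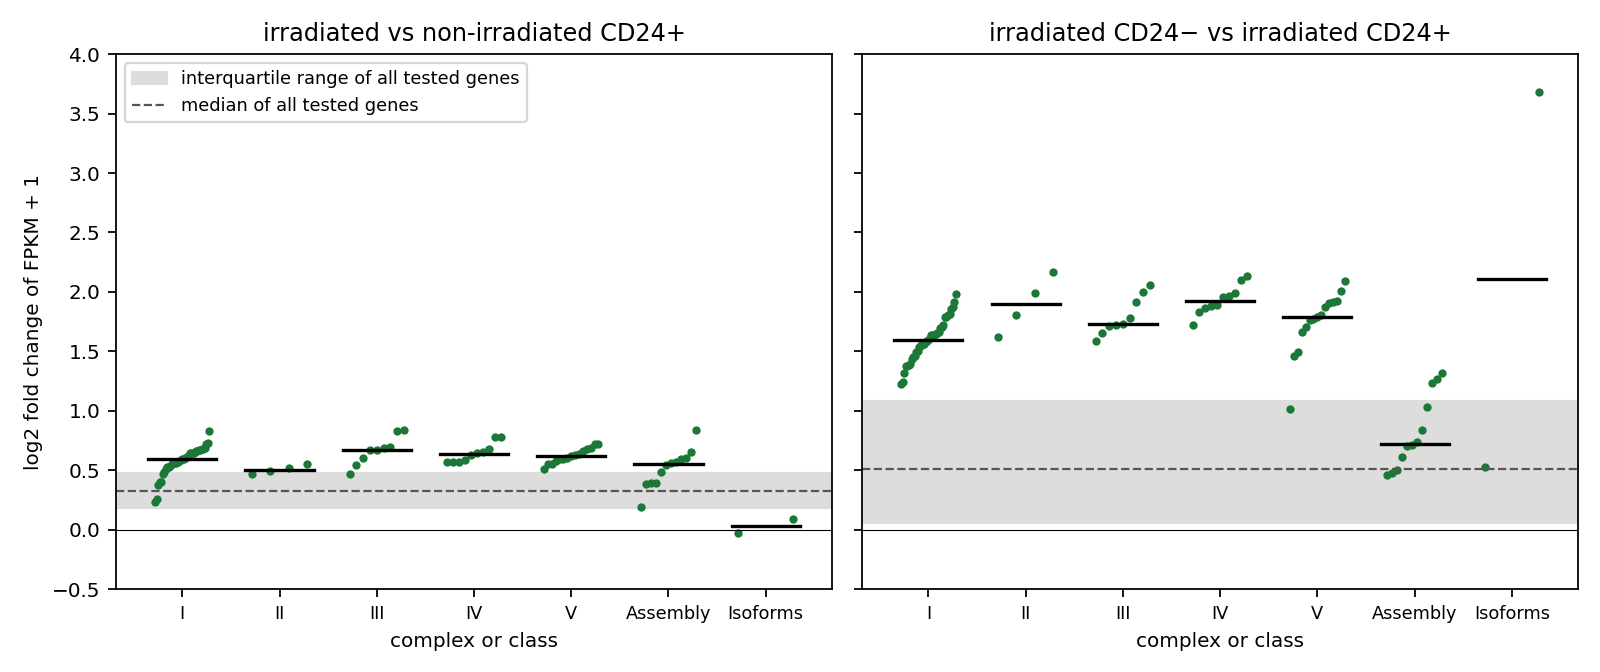
Log2 difference of FPKM + 1 for each tested gene, by complex or class, in irradiated against non-irradiated CD24+ cells (left) and in irradiated CD24- against CD24+ cells (right); points are genes, bars medians, the grey band the interquartile range of all 11190 tested genes and the dashed line their median. On the right every subunit lies above the dashed line at 0.51, while the assembly factors centre on 0.72.

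Markers of some cell types moved with this comparison. The counts here stand beside 48.6% of all tested genes higher and 7.27% lower. All 15 enterocyte markers were higher in CD24- cells, 9 of 10 Paneth markers and 6 of 6 stem cell markers were lower, and 5 of 6 tested tuft markers were lower. Of 8 goblet markers 4 were higher and 1 lower, of 8 enteroendocrine markers 2 were higher and 1 lower, and of 10 proliferation markers 0 were called in either direction. Their part in the difference of the oxidative phosphorylation genes was not tested.

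The scaling between libraries moved the size of the difference more than the calls of the subunits. Over all genes, 5439 were called higher and 813 lower as deposited. With median-of-ratios scaling the counts were 3625 and 2725, with rescaling to a fixed library sum (TPM) 10000 and 260, and with scaling by the sum of all but the 100 most abundant genes 1982 and 5521. Of the members, 80, 89 and 70 were called higher under these 3 scalings and 0, 0 and 3 lower. The 75 subunits were all called higher under the first and second of them and 69 of 75 under the third. The median of all genes moved from 0.51 to 0.04, 1.603 and -0.37. Relative to it the member median was 1.15 as deposited and 1.06, 1.32 and 0.97 under the 3 scalings.

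Complex I has a catalytic core, around which many accessory subunits are arranged. All 37 complex I subunits rose (here counted with Ndufa4), with a median log2 difference of 1.59, and core and accessory subunits moved by like amounts (medians 1.61 and 1.59). Ndufs1, the largest core subunit, which carries iron-sulfur clusters, was at 26.4, 27.4 and 31.1 FPKM in CD24+ and at 82.5, 75.3 and 68.7 FPKM in CD24- cells, a log2 difference of 1.39 ± 0.24 (SE, adjusted p = 0.00064, limma). Ndufv1, the subunit that binds NADH, went from 46.2 ± 6.58 to 148 ± 12.3 FPKM (SD, n = 3 and 3). Neither pair of groups overlapped.

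Among the accessory subunits, Ndufb7, in the membrane arm, had the largest difference. It was at 37.4, 49.1 and 49.4 FPKM in CD24+ and at 162, 217 and 168 FPKM in CD24- cells, 4.02-fold by the means (log2 difference 1.98 ± 0.28, SE, adjusted p = 0.000138, limma). Ndufa7 was at the other end with 1.23 ± 0.27 (SE, adjusted p = 0.00254, limma), from 25.6 ± 2.95 to 61.8 ± 11.5 FPKM (SD, n = 3 and 3). Ndufab1, the mitochondrial acyl carrier protein, which also serves fatty acid and lipoic acid synthesis, lay in the middle, at 36.3 ± 5.52 and 110.2 ± 9.59 FPKM. Ndufs5 was listed at only 2.46 to 2.85 FPKM in irradiated CD24+ cells, far below the other subunits of its complex. Ndufs5 was named after its values were seen, and many of these genes have near-identical processed copies in the genome that could take part of their reads, so such levels are uncertain.

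Ndufa4 was found with complex I and is now counted with complex IV. It was the most abundant gene with a complex I name, at 241, 255 and 275 FPKM in CD24+ and at 688, 766 and 589 FPKM in CD24- cells. Its log2 difference of 1.39 ± 0.28 (SE, adjusted p = 0.00163, limma) lay below all 10 complex IV subunits, whose lowest was 1.72.

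Succinate dehydrogenase belongs both to the respiratory chain and to the tricarboxylic acid cycle. All 4 of its subunits rose, with a median of 1.90. Sdhb, the iron-sulfur subunit, had the largest difference of all 75 subunits: 71.3, 89.4 and 79.4 FPKM in CD24+ and 362, 410 and 316 FPKM in CD24- cells, 4.53-fold by the means (log2 difference 2.16 ± 0.27, SE, adjusted p = 7.56e-05, limma). Sdhd and Sdhc, the membrane anchors, followed with 1.99 ± 0.28 and 1.80 ± 0.26 (SE). Sdha, the flavoprotein, had the smallest of the 4, at 1.62 ± 0.26 (SE), from 88.5 ± 7.17 to 275 ± 32.1 FPKM (SD, n = 3 and 3).

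All 9 complex III genes rose, with a median of 1.73. Uqcrc1, a core protein of the matrix side, was at 97.3, 116 and 120.4 FPKM in CD24+ and at 445, 489 and 463 FPKM in CD24- cells, a log2 difference of 2.06 ± 0.29 (SE, adjusted p = 0.000149, limma). The electron-carrying subunits Uqcrfs1, the Rieske iron-sulfur protein, and Cyc1, cytochrome c1, were 4.04-fold and 3.78-fold higher by the means. Uqcr10, a small subunit, had the smallest difference, 1.59 ± 0.29 (SE).

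All 10 subunits of complex IV rose, with a median of 1.92, close to the 1.90 of complex II. Without irradiated CD24+ library 2 the order of these medians turned (1.92 in IV and 1.93 in II). Cox6a1, the ubiquitous form of subunit 6a, was at 134, 174 and 170.5 FPKM in CD24+ and at 680.0, 769 and 656 FPKM in CD24- cells, 4.40-fold by the means (log2 difference 2.14 ± 0.29, SE, adjusted p = 0.000109, limma). Cox5a was at 108, 113 and 147 FPKM, then at 466, 557 and 557 FPKM. Cox4i1, the ubiquitous form of subunit 4 and the most abundant gene of the complex, was at 234, 281 and 285 FPKM, then at 1004, 1222 and 919.7 FPKM, with a difference of 1.97 ± 0.32 (SE, adjusted p = 0.000392, limma). Cox8a had the smallest difference of the 10, 1.72 ± 0.29 (SE).

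The 15 complex V subunits rose with a median of 1.79. Atp5b, the catalytic beta subunit of the F1 head, was the most abundant of all 95 genes, at 409.6, 484 and 534 FPKM in CD24+ and at 1528, 1668 and 1451 FPKM in CD24- cells, a log2 difference of 1.71 ± 0.32 (SE, adjusted p = 0.00101, limma). Atp5a1, the alpha subunit of the same head, moved alike, from 269 ± 26.6 to 916 ± 85.5 FPKM (SD, n = 3 and 3). Atp5o, which links the head to the peripheral stalk, had the largest difference of the complex, 2.09 ± 0.31 (SE, adjusted p = 0.000209, limma). Atp5g2, 1 of the 3 genes for the membrane ring, had the smallest.

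The complexes did not rise in exactly the same proportion. Counted by name, complex I genes made up 26.5% and 25.2% of the summed FPKM in non-irradiated CD24+ cells, 25.5%, 25.5% and 25.1% in irradiated CD24+ cells, and 22.5%, 22.4% and 22.5% in CD24- cells. Complex IV genes made up 21.1% and 21.6%, then 21.6%, 21.9% and 21.9%, then 24.0%, 24.6% and 24.5%. Complex I was thus lower and complex IV higher in the 3 CD24- libraries, without overlap with any CD24+ library. These shares do not depend on the scaling between libraries. Complex III kept between 13.0% and 13.9% and complex V between 34.1% and 34.9% in every library, and complex II between 4.47% and 5.26%.

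With Ndufa4 counted in complex IV and only the 75 subunits kept, so without Cox7a1 and the other tissue isoforms, complex I went from 22.03% ± 0.276 in irradiated CD24+ to 20.1% ± 0.116 in CD24- cells, and complex IV from 24.2% ± 0.0406 to 25.9% ± 0.275 (SD, n = 3 and 3). With Ndufa4 in complex I, the median log2 difference of complex IV subunits exceeded that of complex I subunits by 0.33, and by 0.29 to 0.37 over the 16 other settings tried. With Ndufa4 in complex IV, a choice added after the data were seen, the gap was 0.28, and 0.26 to 0.34 over the same settings. No p-value is given for shares or medians over members.

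**Figure D3:**
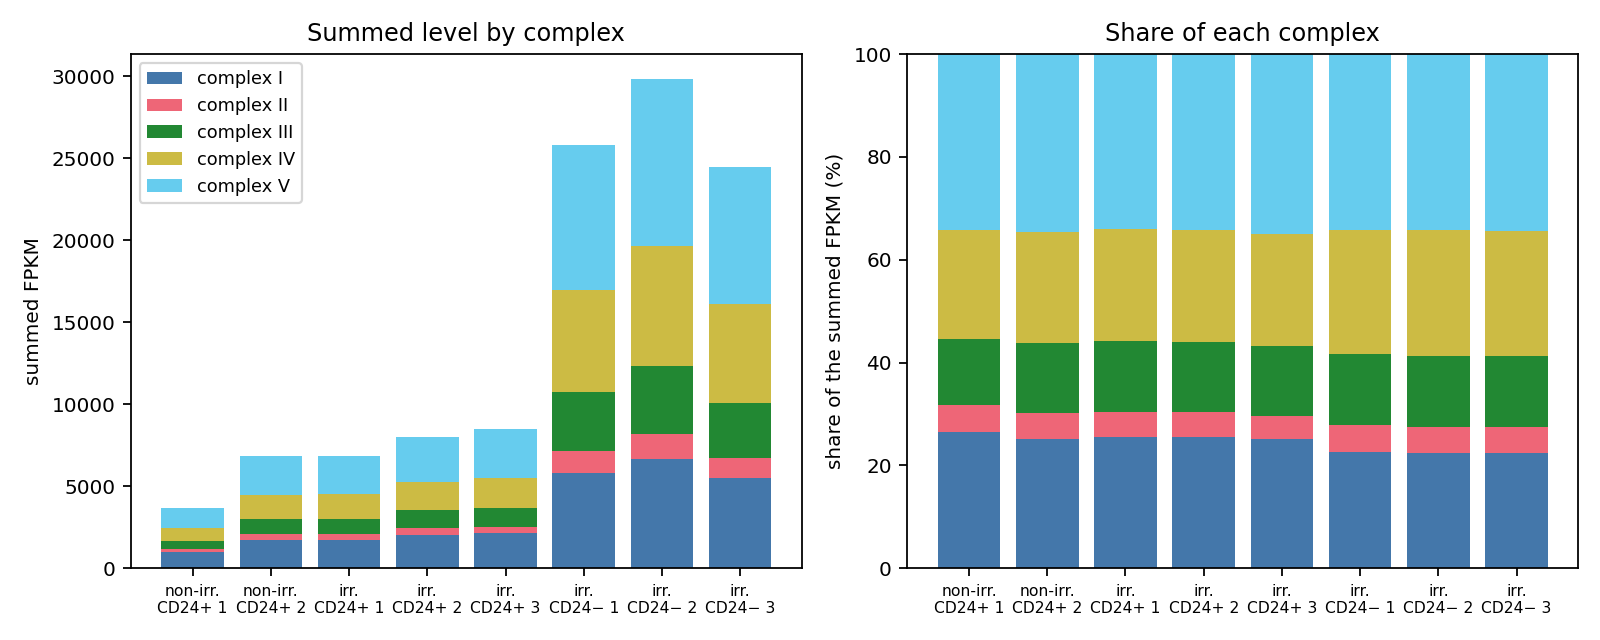
Summed FPKM of the 95 genes in each library, stacked by complex as named (left), and each complex as a percentage of that sum (right); bars are single libraries and both axes start at 0. The sums of the CD24- libraries lie between 24484 and 29856 FPKM, and the share of complex I is 22.4% to 22.5% there against 25.1% to 26.5% in CD24+ libraries.

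Assembly factors help to build the complexes and are not part of the finished enzymes. Apart from Cox7a2l, with a mean of 100.5 FPKM, they stood at 2.32 to 10.7 FPKM in irradiated CD24+ cells. Of the 12, 10 were called higher, beside 48.6% of all tested genes, with a median log2 difference of 0.72, beside 0.51. In all 12 the libraries did not overlap, beside 59.1% of all genes. Atp5sl (1.32 ± 0.22, SE), Cox7a2l (1.27 ± 0.26, SE) and Ndufaf3 (1.23 ± 0.23, SE) had the largest differences. Sdhaf2, which inserts the flavin into Sdha, went from 6.24, 6.76 and 7.53 to 14.4, 15.1 and 15.5 FPKM, with a difference of 1.03 ± 0.20 (SE, adjusted p = 0.00107, limma). Ndufaf7, a methyltransferase that modifies a complex I subunit, was at 4.72, 5.77 and 6.80, then at 9.12, 8.31 and 7.35 FPKM (0.46 ± 0.21, SE, adjusted p = 0.0828, limma), and Sdhaf1, which helps to mature Sdhb, was at 9.85, 10.9 and 11.4, then at 15.9, 18.3 and 12.9 FPKM (0.50 ± 0.23, SE, adjusted p = 0.0899, limma). Neither was called.

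The count of assembly factors called depended on the scaling, the filter and single libraries. When 1 irradiated library was left out, it was lowest without CD24+ library 1, with 4 called higher, beside 39.0% of all tested genes. It was 7 and 9 without CD24+ library 2 or 3, and 6, 6 and 10 without CD24- library 1, 2 or 3. With no filter 8 were called higher, beside 31.4%. With TPM all 12 were called higher, beside 89.4% of all tested genes. With median-of-ratios scaling 4 were called higher, beside 32.4%. With scaling by all but the top 100 genes 0 were called higher, beside 17.7%, and 3 (Atp5s, Ndufaf7 and Sdhaf1) lower, beside 5521 of 11190 genes. With a filter at 5 FPKM the median of the assembly factors was 0.73, beside 0.73 over all genes. Atp5s was called higher as deposited (adjusted p = 0.0285, limma) and was lost when irradiated libraries of the same number were paired (adjusted p = 0.0576, limma). It was also lost without any 1 of the irradiated libraries other than CD24- library 3 (adjusted p between 0.0645 and 0.125, limma). The gap between the medians of complex I subunits and of the 12 was 0.87, and it was 0.72 to 0.98 over the 16 other settings. Fold changes on the log2(FPKM + 1) scale understate the change of genes with low levels, but with a pseudocount of 0.1 the gap was still 0.78.

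Cox7a1 stood apart from all other members. It is the form of subunit 7a known from heart and skeletal muscle, and it was at 14.7, 12.6 and 9.72 FPKM in irradiated CD24+ and at 163, 195 and 150.0 FPKM in CD24- cells, 13.7-fold by the means. The log2 difference of 3.68 ± 0.32 (SE, adjusted p = 9.52e-06, limma) lay at percentile 98.8 of all tested genes. Cox7a2, the ubiquitous form, was at 97.9, 106 and 131, then at 403, 479 and 419 FPKM, a difference of 1.96 ± 0.29 (SE, adjusted p = 0.000213, limma), close to the median of its complex.

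Within the 3 genes of the Cox7a family, Cox7a1 made up 7.20% and 10.5% of the FPKM in non-irradiated CD24+ cells, 7.26%, 5.72% and 3.89% in irradiated CD24+ cells, and 20.4%, 20.6% and 18.9% in CD24- cells. Cox7a2 stayed between 48.0% and 52.8% in all 8 libraries, while Cox7a2l went from 44.5%, 46.2% and 43.8% to 29.1%, 28.9% and 28.3%. The log2 ratio of Cox7a1 to Cox7a2 was higher by 1.82 in CD24- than in irradiated CD24+ cells, with no overlap between the 3 and 3 libraries (exact two-sided permutation test, p = 0.1, the smallest p that 3 against 3 libraries allow; adjusted p = 0.1 over 3 ratios tested). Also tested were the ratios of Cox7a2l to Cox7a2 (difference -0.69) and of Atp5g2 to Atp5g3. These tests were added to shares planned only as a description, and groups without overlap always give this p. Cox7a1 remained the less abundant of the pair in every library. Cox6b2, the testis form of subunit 6b, was the only other tissue isoform tested: it was at 1.37, 1.14 and 2.34, then at 2.07, 0.939 and 7.57 FPKM, with overlapping groups (adjusted p = 0.363, limma).

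Atp5g1, Atp5g2 and Atp5g3 encode the same mature c subunit of the ATP synthase ring and differ in the import sequence that is cut off. Atp5g3 rose by 2.01 ± 0.33 (SE, adjusted p = 0.000437, limma), from 264, 313 and 362 to 1154, 1368 and 1239.8 FPKM. Atp5g1 rose by 1.67 ± 0.29 (SE, adjusted p = 0.000556, limma). Atp5g2 had the smallest difference of all 75 subunits, 1.02 ± 0.29 (SE, adjusted p = 0.0106, limma), from 151, 188 and 188 to 375, 416 and 287 FPKM, and its profile over the 8 libraries was the least like the mean profile of the 75 subunits (r = 0.98, beside a median of 0.997 over these subunits, n = 8 libraries that share this pattern of groups).

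The call of Atp5g2 was not stable. Without irradiated CD24+ library 1 its adjusted p was 0.0571 and without CD24- library 2 it was 0.0531 (limma), and with scaling by all but the top 100 genes its difference was -0.051. Its share of the 3 genes does not depend on scaling: 32.4% and 28.1%, then 30.5%, 31.1% and 28.5%, then 20.5%, 19.5% and 15.8%. The share of Atp5g3 went the other way, from 53.2%, 51.7% and 54.9% in irradiated CD24+ to 63.2%, 64.2% and 68.1% in CD24- cells, and Atp5g1 held 16.1% to 17.4% in every library. The log2 ratio of Atp5g2 to Atp5g3 was lower in CD24- cells, with a difference of -0.99 (exact two-sided permutation test, p = 0.1, the smallest possible; adjusted p = 0.1 over 3 ratios).

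**Figure D4:**
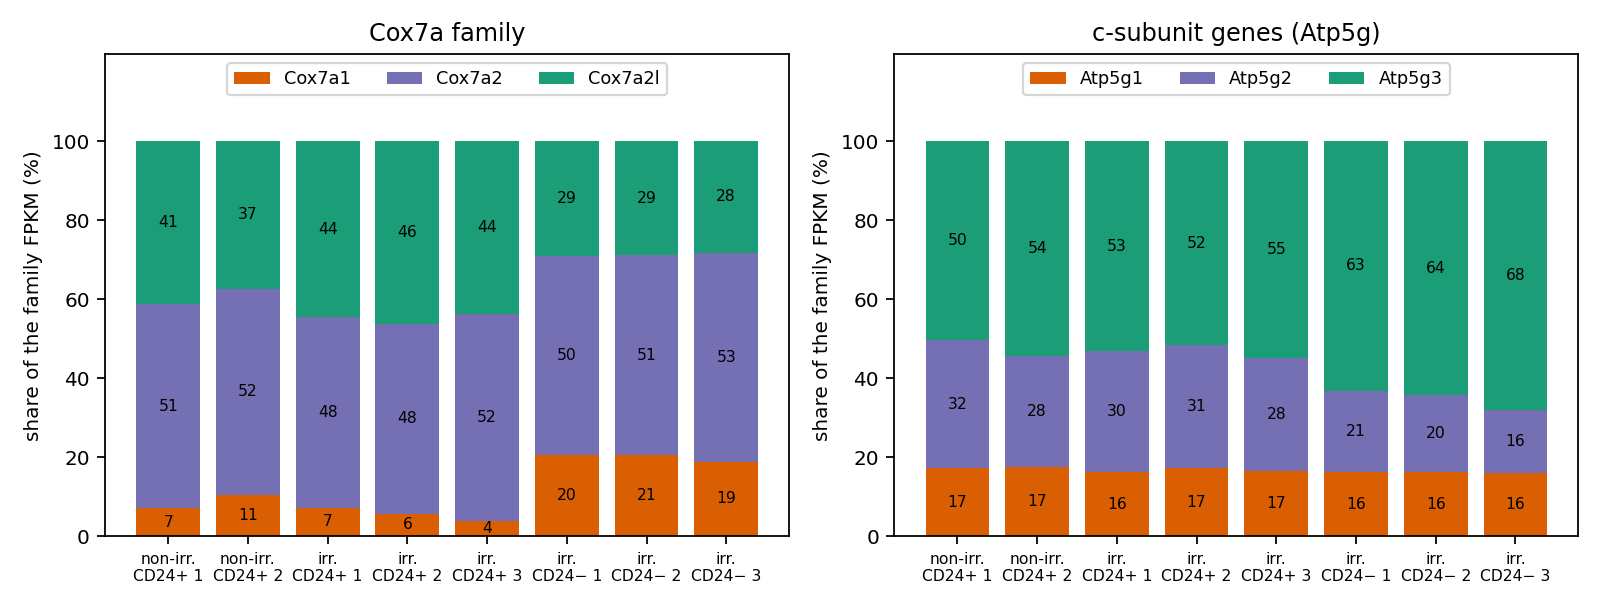
Share of each gene in the summed FPKM of its family, in percent, for the Cox7a family (left) and the 3 c-subunit genes (right), 1 bar per library. In CD24- libraries Cox7a1 holds 18.9% to 20.6% against 3.89% to 10.5% in CD24+ libraries, and Atp5g2 holds 15.8% to 20.5% against 28.1% to 32.4%.

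The promoters of these gene pairs are shown because the genes share a product or a place in the enzyme and yet differed in response. Promoter windows (250 bases before to 50 after the gene start, RefSeq, build GRCm38.p6) were found by symbol for 75 of the 95 members. Short motifs linked with mitochondrial genes or basal promoters were searched on both strands: GCGCANGCG (the NRF1 type), ACTTCCGG (the ETS type), AAGATGGCG (the YY1 type) and TATAAA. Below, 170 bases before to 30 after the start are printed 5′ to 3′ on the strand of the gene, and capitals mark GCGCANGCG on either strand, overlapping matches joined. The Cox7a pair, Cox7a1 at chr7:30184001-30184200 (+) and Cox7a2 at chr9:79759824-79760023 (-), holds none of the NRF1 type.
Cox7a1: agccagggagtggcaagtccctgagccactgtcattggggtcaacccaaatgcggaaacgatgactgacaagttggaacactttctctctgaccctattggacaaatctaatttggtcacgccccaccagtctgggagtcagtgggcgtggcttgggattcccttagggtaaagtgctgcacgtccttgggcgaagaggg
Cox7a2: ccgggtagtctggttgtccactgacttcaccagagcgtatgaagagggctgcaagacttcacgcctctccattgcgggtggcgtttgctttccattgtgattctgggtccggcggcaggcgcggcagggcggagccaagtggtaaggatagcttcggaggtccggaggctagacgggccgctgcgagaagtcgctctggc
Cox6a1 at chr5:115348929-115349128 (-), the complex IV subunit with the largest difference, has 2 stretches in capitals.
Cox6a1: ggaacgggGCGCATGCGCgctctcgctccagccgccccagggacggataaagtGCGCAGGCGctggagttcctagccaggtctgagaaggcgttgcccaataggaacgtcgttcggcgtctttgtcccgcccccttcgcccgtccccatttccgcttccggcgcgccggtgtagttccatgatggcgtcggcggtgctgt
The 3 c-subunit genes, Atp5g1 at chr11:96075602-96075801 (-), Atp5g2 at chr15:102671018-102671217 (-) and Atp5g3 at chr2:73911297-73911496 (-), differ.
Atp5g1: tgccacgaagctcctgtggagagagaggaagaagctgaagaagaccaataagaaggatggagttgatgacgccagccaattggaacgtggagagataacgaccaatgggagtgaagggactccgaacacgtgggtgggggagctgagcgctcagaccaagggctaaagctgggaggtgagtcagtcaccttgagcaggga
Atp5g2: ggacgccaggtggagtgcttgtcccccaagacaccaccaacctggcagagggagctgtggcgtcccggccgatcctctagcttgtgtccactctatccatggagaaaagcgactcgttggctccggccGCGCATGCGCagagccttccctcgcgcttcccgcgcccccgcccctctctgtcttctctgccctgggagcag
Atp5g3: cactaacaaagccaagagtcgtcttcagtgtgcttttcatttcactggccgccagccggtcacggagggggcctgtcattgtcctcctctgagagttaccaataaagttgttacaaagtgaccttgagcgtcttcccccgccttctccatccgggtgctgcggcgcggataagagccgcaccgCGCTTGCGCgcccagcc

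Atp5g1 had no match in its window, Atp5g2 had a palindromic match before its start and Atp5g3 a match after its start, so the motif was present both in the c-subunit gene that rose most and in the one that rose least. Over the 73 tested members with a window, 22 held the NRF1-type motif (30.1%), beside 16.0% of the 8428 tested genes and 7.03% of all 27025 genes with a window. By complex, and counted by name, it was found in 10 of 39 members of complex I, 2 of 5 of complex II, 2 of 5 of complex III, 1 of 11 of complex IV (Cox6a1) and 7 of 13 of complex V. The YY1-type motif was in 7 of 73 (9.59%, beside 3.89% of tested genes), the ETS type in 5 (6.85%, beside 9.67%) and TATAAA in 5 (6.85%, beside 8.91%). A match of letters is not a binding site, and its absence says only that the letters are not in this window.

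Other genes of mitochondrial energy metabolism were read from lists, whose counts stand beside 48.6% of all tested genes higher. All 3 further complex V genes tested rose, among them Atpif1, the inhibitor of the ATP synthase (1.99 ± 0.30, SE), and Usmg5 (1.88 ± 0.31, SE). Of 15 tested genes for electron carriers and ubiquinone synthesis 13 rose and 0 fell, led by Cycs, cytochrome c itself, at 34.5, 36.0 and 51.7, then at 163, 182 and 263 FPKM (2.28 ± 0.34, SE, adjusted p = 0.000197, limma), followed by Etfb (1.88 ± 0.26, SE). All 19 genes of the tricarboxylic acid cycle and pyruvate entry rose, with a median of 1.51. Mdh2, malate dehydrogenase, was at 169, 195 and 203, then at 1255, 1491 and 1401 FPKM (2.86 ± 0.32, SE, adjusted p = 3.68e-05, limma), and Cs, citrate synthase, rose by 2.27 ± 0.31 (SE).

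Glycolysis genes differed at least as much. Of 18 tested 16 rose and 0 fell, with a median of 2.05, above the 1.72 of the subunits. All counts in this paragraph stand beside 48.6% of tested genes higher and 7.27% lower. Slc16a3, a lactate transporter, rose by 2.98 ± 0.39 (SE, adjusted p = 8.96e-05, limma). Among assembly factors outside the name rule, 6 of 8 for complex I rose with a median of 0.75, and 27 of 29 for complexes III to V with a median of 1.10. Mitochondrial import and outer membrane genes were called in 12 of 18 cases, with a median of 0.98, led by the channel gene Vdac2 (2.08 ± 0.31, SE) and by Timm17a (1.51 ± 0.28, SE).

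Of 17 regulators of mitochondrial biogenesis 8 rose and 1 fell, shares close to those of all tested genes (48.6% and 7.27%), with a median of 0.41, beside 0.51 over all genes. Esrra, a nuclear receptor that activates oxidative genes, was at 13.9, 16.8 and 12.8, then at 83.6, 92.5 and 78.1 FPKM (2.47 ± 0.27, SE, adjusted p = 2.7e-05, limma). Ppargc1a, its coactivator PGC-1 alpha, was at 0.778, 0.709 and 0.450, then at 4.48, 6.09 and 5.30 FPKM (1.93 ± 0.19, SE, adjusted p = 1.76e-05, limma). Pprc1, a related coactivator, fell by 0.88 ± 0.31 on the log2 scale (SE, adjusted p = 0.0297, limma). Of the factors named after the motifs searched, Gabpa, an ETS factor, rose by 0.63 ± 0.20 (SE, adjusted p = 0.0186, limma), while Nrf1 had 0.33 ± 0.19 (SE, adjusted p = 0.156, limma) and Yy1 0.33 ± 0.19 (SE, adjusted p = 0.152, limma). None of the genes in these lists was called in irradiated against non-irradiated CD24+ cells.

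**Figure D5:**
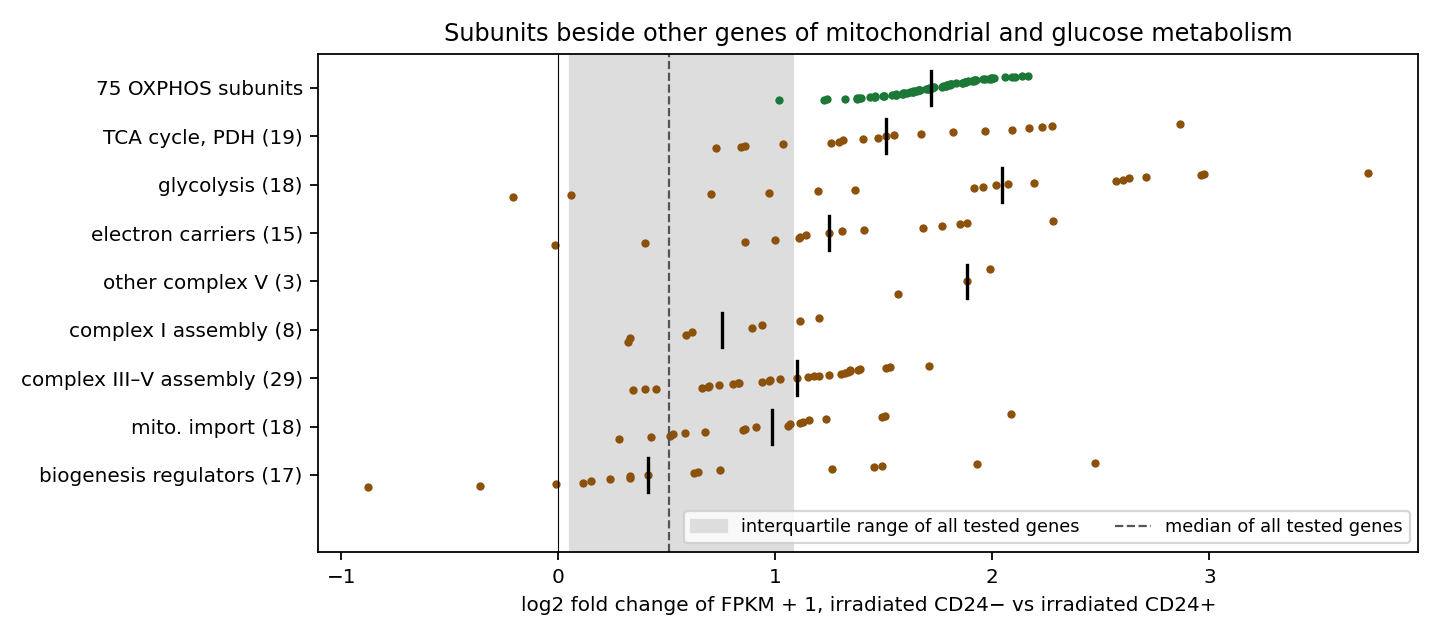
Log2 difference of FPKM + 1 in irradiated CD24- against irradiated CD24+ cells for the 75 subunits (green) and 8 other gene lists (brown); points are genes, bars medians, numbers in brackets tested genes, and the grey band and dashed line the interquartile range and median of all tested genes. The subunits run from 1.02 to 2.16, all above the dashed line, and the biogenesis regulators centre on 0.41.

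The genes outside the list whose profiles over the 8 libraries were most like the mean of the members were Pet100, a complex IV assembly factor, Pon2, Suclg1, a subunit of succinyl-CoA ligase, Mrpl51, a mitochondrial ribosomal protein, and Txn1, thioredoxin, each with Pearson's r of at least 0.999 (n = 8 libraries). The 8 points share 3 groups and library-wide differences, so such values describe the shape and no p is given. Pet100 was at 2.43 and 4.44, then 4.29, 4.96 and 5.01, then 12.3, 13.9 and 11.8 FPKM, the same order of libraries as the members showed, at a far lower level.

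Set against non-irradiated CD24+ cells, which differ from the CD24- cells both in irradiation and in CD24, 88 of 89 members were higher in CD24- cells and 0 lower, beside 65.7% of all genes higher and 4.99% lower (limma). This comparison shares libraries with the other 2 and is not independent of them. The median was 2.28, beside 0.88 for all genes, with 2.22 in complex I, 2.39 in II, 2.47 in III, 2.58 in IV and 2.37 in V. Cox7a1 again had the largest difference, 3.66 ± 0.36 (SE, adjusted p = 1.79e-05, limma), and Cox5a, a nuclear-encoded subunit of complex IV, the largest among subunits, 2.88 (adjusted p = 4.25e-05, limma). Cox6b2 was the member not called (adjusted p = 0.306, limma).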

How the data were processed

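RNA of sorted tdT+ cells was sequenced after TruSeq RNA v2 library preparation, per the labels, a kit that keeps no strand information. The authors deposited 1 table of FPKM for 8 libraries; the submitters' processing notes name TopHat2 2.1.0, StringTie 1.3.4 and build mm9, and the annotation is not given in the sources used here. The table had 24015 entries, of which 2 repeated a symbol and were summed. How reads shared with near-identical copies were assigned is not given, so levels of genes with processed pseudogenes are uncertain. No counts were given; depth was approximated from the smallest common step of FPKM times length over single-transcript genes.

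All 8 libraries were fitted on log2(FPKM + 1) with limma 3.58.1 (R 4.3.3; lmFit, contrasts.fit, eBayes with trend), and p-values were adjusted by Benjamini-Hochberg over the 11190 genes with at least 1 FPKM in at least 2 libraries. The fit was tested on simulated data. Same-numbered irradiated CD24+ and CD24- libraries deviated together (r = 0.37, 0.23 and 0.40, each the highest for its number), which is where the pairing comes from, since no label states it. Between non-irradiated and irradiated CD24+ libraries, which come from different mice, r ran from -0.25 to 0.25. The 2 non-irradiated libraries deviate from their mean as mirror images, so this range is symmetric by construction and cannot decide the pairing. The pairing is thus uncertain. The members and lists were chosen with earlier results of these data known. Genes are named by a rule: 30 core genes in every comparison, the member with the largest called difference in each direction per complex and for the assembly factors, with a mean of at least 5 FPKM and no overlap (the smallest p where none was called), the 6 highest and 6 lowest members in CD24- against CD24+ cells, any member called against its complex, the 2 largest per direction of each list, and the 5 most alike genes. Ndufs5, Ndufa7, Uqcr10, Ndufaf3, Sdhaf2 and the motif factors Nrf1, Gabpa and Yy1 fall outside it and were chosen after their values were seen. Some genes that the rule names are not reported here. Figures were drawn with matplotlib 3.10.9.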

Additional observations from a re-analysis of the deposited data

How the results depend on the processing

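Alternatives were the pseudocount, the filter, 3 scalings, a fit of only the 2 groups compared, a replicate block and leaving out each library. In irradiated against non-irradiated CD24+ cells the count of members called higher was 0 to 84 over the leave-one-out fits and 0 in all other settings. In CD24- against irradiated CD24+ cells it was 79 to 88 over the leave-one-out fits and, with the replicate block, 85 (Atp5s was lost); the block changed no other call of a member. With scaling by all but the top 100 genes, 3 members were called lower there and 2 against non-irradiated cells. In irradiated against non-irradiated CD24+ cells, 8 of 89 members changed sign with median-of-ratios scaling and 7 without the top 100 genes, none of them called. Among the genes the rule names for this comparison these sign changes were those of Ndufv1 (-0.060 with median-of-ratios scaling, -0.043 without the top 100 genes) and, under other settings, of Cox7a1 (0.11 with TPM, 0.088 with the replicate block, and -0.72 to 0.67 over the leave-one-out fits). In CD24- against irradiated CD24+ cells, 10 members (1 subunit, 8 assembly factors and Cox6b2) changed sign without the top 100 genes. Values of those named by the rule were -0.051 for Atp5g2, -0.47 for Ndufaf7, -0.38 for Atp5s, -0.49 for Sdhaf1, -0.15 for Cox6b2, -0.28 for Ndufaf6 and -0.10 for Ndufaf5. Median-of-ratios scaling gave -0.034 for Ndufaf7 and -0.028 for Sdhaf1, and over the leave-one-out fits Cox6b2 was -0.073 (without CD24- library 3) to 0.999. The cause was not tested.

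With Ndufa4 in complex IV and assembly factors left out, the mean shares in non-irradiated CD24+, irradiated CD24+ and CD24- cells were 22.3%, 22.0% and 19.9% for complex I, 24.3%, 24.3% and 26.4% for complex IV and 34.9%, 35.01% and 34.6% for complex V; complex II was 4.96% in non-irradiated cells, and complex III 14.0% in both irradiated groups, since fewer genes enter the sum. With the tissue isoforms also left out, a setting chosen after seeing the data, they were 22.4%, 22.03% and 20.1% for complex I, 24.04%, 24.2% and 25.9% for complex IV and 35.04%, 35.1% and 34.9% for complex V, with 4.97% for complex II in non-irradiated cells and 14.1% for complex III in both irradiated groups. Depth limits Cox6b2 most, with about 15.4 reads in its lowest library.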
